A study of Mus musculus with 9 samples.

Results

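The collagen genes are the 44 protein-coding genes whose symbol has the form Col, a type number, a and a chain number, out of 54532 genes in the count table. They were grouped by type number alone into 11 fibrillar genes (types I, II, III, V, XI, XXIV and XXVII), 6 basement membrane genes (type IV), 6 microfibrillar genes (type VI) and 21 others. Bulk RNA-seq counts were analysed from 9 libraries of cultured adipose-derived stem cells (ASCs) of C57/BL6 mice, 3 each from subcutaneous adipose tissue (Sub-ASCs), abdominal adipose tissue (Ab-ASCs) and perivascular adipose tissue (PVASCs). The labels name no genetic change and no treatment for any depot. The cells were freed by digestion with collagenase and dispase and grown in culture through early passages, and no sort to one cell type is stated for them. The age and sex of the animals, and whether the 3 libraries of a depot came from separate animals or from 1 culture, are not given in the sources used here, so p-values measure only the spread between these libraries.

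Collagens are secreted or membrane proteins built from 3 chains that wind into a triple helix, which needs glycine at the first position of every Gly-X-Y triplet. Fibrillar collagens form the load-bearing fibrils of skin, tendon and the vessel wall, type IV forms the sheet-like network of basement membranes, and type VI forms beaded microfilaments around cells. Among the others, network collagens (VIII, X) form lattices, type VII forms anchoring fibrils, FACIT collagens (IX, XII, XIV, XVI and relatives) sit on fibril surfaces, transmembrane collagens (XIII, XVII, XXIII, XXV) are cell surface proteins, and multiplexins (XV, XVIII) belong to vascular and epithelial basement membrane zones. In adipose tissue, fibroblast-like stromal cells are the main source of fibrillar and type VI chains, while type IV surrounds adipocytes, vascular smooth muscle and endothelium.

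The sequence rule behind these classes was visible in the coding exons. The longest stretch of uninterrupted Gly-X-Y triplets in the coding sequence ran from 216 to 344 triplets in the 11 fibrillar genes, from 39 to 66 in the type IV genes and from 37 to 87 in the type VI genes. Exons of exactly 54 bases, which encode 6 triplets, made up 47.0% of the fibrillar coding exons but 4.05% of those of type IV and 7.83% of those of type VI. The 6 genes shown here carry results below and are represented by their first 54-base coding exon inside that stretch, with the glycine codons in capitals, to show the repeat that the chains share. The sequences are GENCODE M21 transcripts on GRCm38, written 5′ to 3′ on the coding strand. They lie at chr1:45325360-45325413 on the plus strand (Col3a1, coding exon 6), chr11:94939904-94939957 on the plus strand (Col1a1, coding exon 8), chr6:4515481-4515534 on the plus strand (Col1a2, coding exon 8), chr3:114108281-114108334 on the plus strand (Col11a1, coding exon 15), chr8:11245211-11245264 on the minus strand (Col4a1, coding exon 7) and chr10:76719623-76719676 on the minus strand (Col6a1, coding exon 9).
Col3a1: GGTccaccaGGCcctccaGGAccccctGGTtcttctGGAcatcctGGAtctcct
Col1a1: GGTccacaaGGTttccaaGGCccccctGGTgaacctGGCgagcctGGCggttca
Col1a2: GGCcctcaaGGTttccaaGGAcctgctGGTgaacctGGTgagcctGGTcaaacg
Col11a1: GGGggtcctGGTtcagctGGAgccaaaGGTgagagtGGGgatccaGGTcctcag
Col4a1: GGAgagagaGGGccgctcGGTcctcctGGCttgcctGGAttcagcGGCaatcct
Col6a1: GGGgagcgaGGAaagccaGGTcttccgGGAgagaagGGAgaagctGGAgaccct

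Library totals ran from 20524173 to 29881036 reads assigned to genes. Replicates of Sub-ASCs and PVASCs varied little, with a biological coefficient of variation of 5.69% and 3.85%, against 12.5% in Ab-ASCs, where replicate 1 stood apart: counts differed from those of its 2 partners by a chi-square of 30.2 and 18.98 per degree of freedom, against 4.27 between the partners. Calls on collagen genes are therefore also given without that library. The stromal markers that define ASCs were all detected, but their summed level was 16143 to 17363 CPM (read counts scaled to a library size adjusted by TMM) in Sub-ASCs, 4841 to 5004 in Ab-ASCs and 5746 to 5953 in PVASCs. Markers of other cell types also differed between the depots. The summed CPM of 8 endothelial markers was 209 to 221 in Sub-ASCs, 73.0 to 74.6 in Ab-ASCs and 884 to 887 in PVASCs, that of 7 smooth muscle markers was 92.9 to 98.0, 4652 to 5744 and 2815 to 2961, and that of 12 mesothelial markers was 3.30 to 3.35, 133 to 143 and 50.2 to 51.8. The 15 proliferation genes summed to 174 to 181 CPM in Sub-ASCs, 1495 to 1500.4 in Ab-ASCs and 1217 to 1227 in PVASCs, and 8 macrophage markers to 303 to 315, 330 to 434 and 323 to 333, although 6 of these 8 were lower and 2 higher than in Sub-ASCs in both other depots. Of the 12 stromal markers, 5 were higher and 7 lower in PVASCs than in Sub-ASCs, and 4 higher and 8 lower in Ab-ASCs. Among all genes tested, 34.7% were called higher and 35.7% lower in PVASCs than in Sub-ASCs, and 37.0% and 38.3% in Ab-ASCs. The 6 adipocyte markers summed to 3862 to 4140 CPM in Sub-ASCs, 365 to 462 in Ab-ASCs and 154 to 159 in PVASCs, most of it Lpl. The 4 tested were lower than in Sub-ASCs in both other depots. Of these, Adipoq and Plin1 passed the low-count filter only through Sub-ASCs, so their calls are not independent of that filter. Adipoq stayed below a mean of 1 CPM in each depot and Lep had no read. In bulk libraries a smaller number of cells of one type and less RNA per cell cannot be told apart, and the part of these differences in the collagen results was not tested.

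Of the 44 collagen genes, 38 passed the low-count filter of the test and 6 did not. The 6 were Col26a1, with no read in any library, Col9a1, with 4 reads in 1 Sub-ASC library and none elsewhere, and Col6a4, Col9a2, Col19a1 and Col25a1, with at most 8 reads in any library. A total of 26 genes had at least 10 reads in every library, 13 had at least 1000 reads in every library, and 16 reached a mean of 10 FPKM (read counts scaled to the unadjusted library total and the listed gene length) in at least 1 depot. Col2a1, Col6a5, Col10a1 and Col22a1 passed the filter only through the depot where they were high. Such a gene had to differ between depots, so the counts of calls below describe the 38 genes and are set beside the share called among all 16526 genes tested.

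Collagen transcripts made up 2.38% ± 0.0890 of the reads in Sub-ASCs, 2.05% ± 0.0223 in Ab-ASCs and 1.55% ± 0.0198 in PVASCs (mean ± SD, n = 3). The libraries of the 3 depots did not overlap in this share, which ran from 2.29% to 2.46%, from 2.02% to 2.06% and from 1.52% to 1.56%. Without Col3a1, the collagen gene with the most reads, the shares were 1.49%, 1.93% and 1.43% in Sub-ASCs, Ab-ASCs and PVASCs, and Ab-ASCs were highest. Per length, the make-up of the collagen mRNA differed between the depots as well. Fibrillar genes held 76.7% ± 0.132 of the summed collagen FPKM in Sub-ASCs, 68.1% ± 0.198 in Ab-ASCs and 54.6% ± 0.118 in PVASCs. Basement membrane genes held 9.31% ± 0.226 in Sub-ASCs, 21.9% to 22.1% in the Ab-ASC libraries and 28.5% ± 0.0862 in PVASCs. Microfibrillar genes held 9.998% ± 0.149, 1.67% ± 0.0251 and 4.71% ± 0.0834, and the others 3.96% ± 0.0367, 8.24% ± 0.186 and 12.2% ± 0.0692. The main chain differed too. Col3a1 was the largest single entry in Sub-ASCs with 34.0% of the collagen FPKM, against 4.71% in Ab-ASCs and 6.51% in PVASCs, whereas Col1a1 led in Ab-ASCs with 29.6% and in PVASCs with 22.5%.

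**Figure D1:**
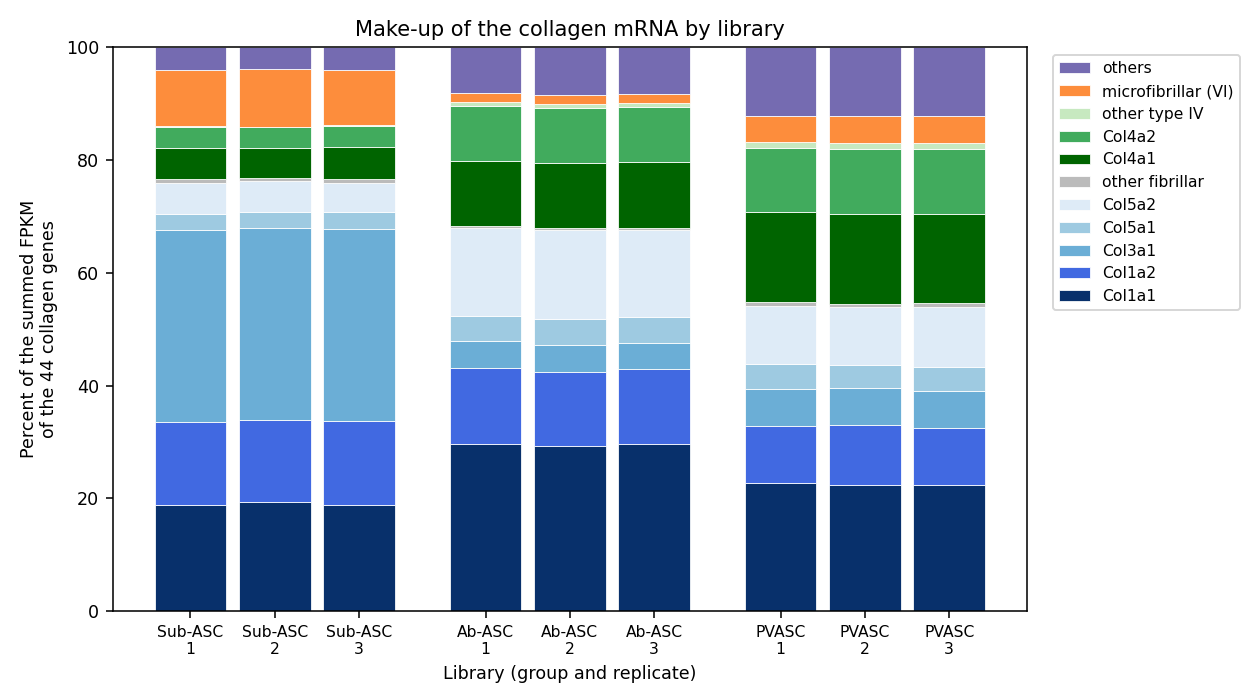
Share of the summed FPKM of the 44 collagen genes held by single genes and gene classes (y axis, percent, bars start at 0) in each of the 9 libraries (x axis, group and replicate). Col3a1 holds 34.0% of the bar on average in Sub-ASCs, and type IV genes hold 28.5% in PVASCs against 9.31% in Sub-ASCs.

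Of the 38 collagen genes tested, PVASCs had 16 above and 16 below Sub-ASCs, and 6 stayed above an adjusted p of 0.05 in the quasi-likelihood test of edgeR. The 32 calls are 84.2% of the genes tested, where 70.4% of all genes tested were called. The share that was called and changed at least 4-fold was 42.1%, against 16.3% of all genes tested. Between PVASCs and Ab-ASCs, 12 were higher and 15 lower in PVASCs, which is 71.1% beside 56.9% of all genes, and 18.4% changed at least 4-fold beside 5.69%. Between Ab-ASCs and Sub-ASCs, 15 were higher and 18 lower in Ab-ASCs, which is 86.8% beside 75.3%, and 52.6% changed at least 4-fold beside 17.2%. Without Ab-ASC replicate 1 the called genes numbered 35, 26 and 32 of 38 in these 3 comparisons. Over the 38 genes the log2 fold changes had a median of -0.05, 0.02 and -0.28, where all genes tested had -0.01, -0.06 and -0.03, and single members ran from -5.90 to 7.97, from -2.17 to 7.36 and from -4.74 to 5.34. The 3 comparisons share libraries in pairs and are not independent of each other.

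**Figure D2:**
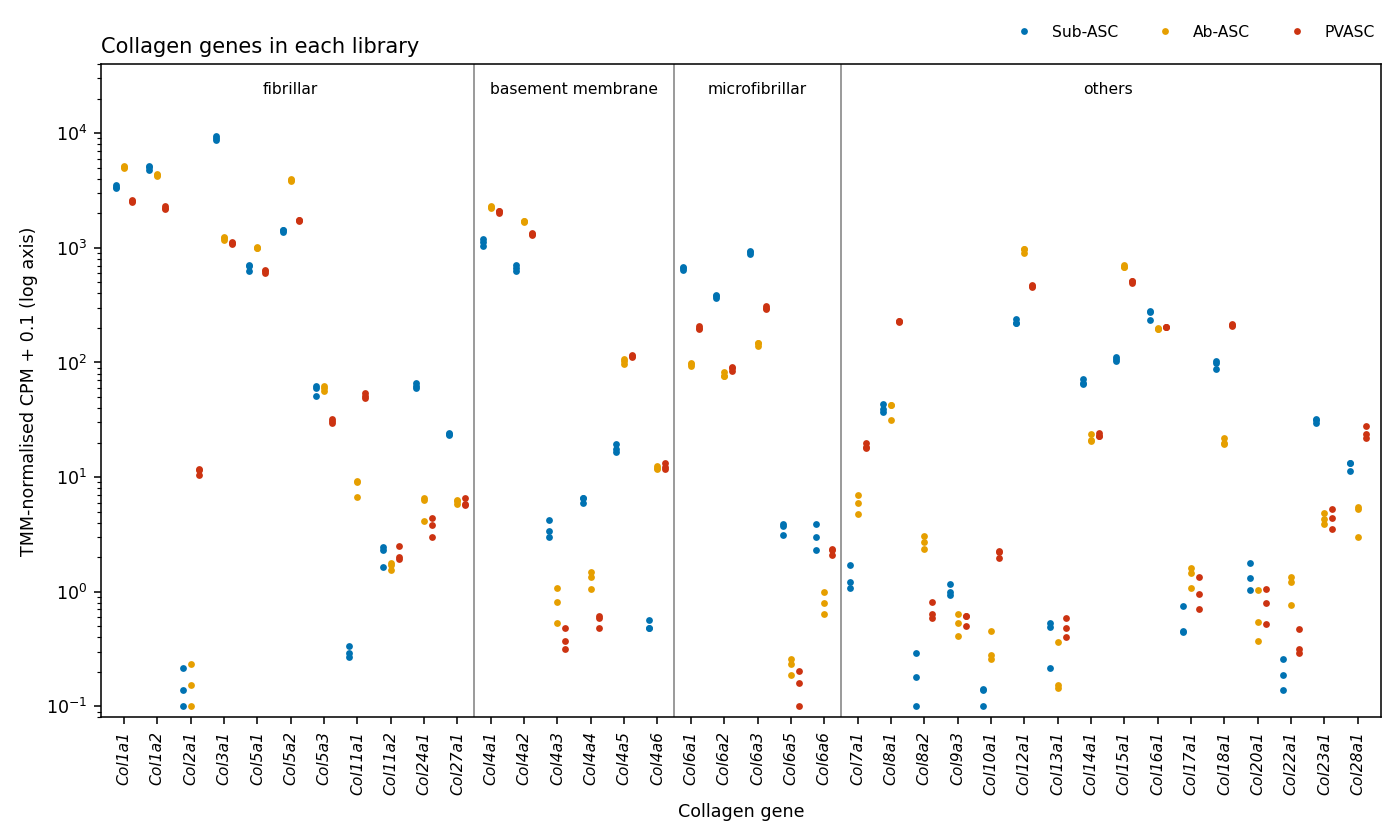
TMM-normalised CPM plus 0.1 on a log axis (y) of the 38 collagen genes tested (x), one point per library, coloured by depot and split into the 4 classes. In the microfibrillar panel the Sub-ASC points of Col6a1, Col6a2, Col6a3 and Col6a5 lie above all other libraries, and Col2a1 stands far above the axis floor in PVASCs alone.

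Among the fibrillar genes, Col3a1, which encodes the chain of type III collagen found in distensible tissues such as skin and vessel wall, differed by the most CPM. It was at 9125, 8735 and 9459 CPM in Sub-ASCs, 1236, 1179.6 and 1209 in Ab-ASCs, and 1127, 1110.3 and 1089 in PVASCs, normalised by the TMM method as all CPM values here. All Sub-ASC libraries lay above all others, and the log2 fold change was -3.04 ± 0.0464 (SE) for PVASCs against Sub-ASCs (edgeR adjusted p = 5.12e-14) and -2.91 ± 0.0462 for Ab-ASCs against Sub-ASCs (edgeR adjusted p = 6.82e-14). By FPKM it ranked 25 among protein-coding genes in Sub-ASCs, 405 in Ab-ASCs and 329 in PVASCs. Between PVASCs and Ab-ASCs the difference was small, -0.12 ± 0.0430 (edgeR adjusted p = 0.0275), and the call was lost in 9 of 16 alternative settings, with adjusted p up to 0.315. Its direction rests on the scaling: by FPKM, which uses the unadjusted library totals, PVASCs were above Ab-ASCs at 123 against 115. The unadjusted totals shift the log2 ratio of depots by a median over the 38 members tested of 0.16 for PVASCs and -0.067 for Ab-ASCs relative to Sub-ASCs, and 0.23 for PVASCs relative to Ab-ASCs. The order of depot means turned with them for Col5a1 (PVASCs and Sub-ASCs), for Col27a1, Col3a1 and Col4a1 (PVASCs and Ab-ASCs) and for Col5a3 (Ab-ASCs and Sub-ASCs).

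Type I collagen, the main fibril of skin, tendon and bone, is made of 2 chains from Col1a1 and 1 from Col1a2. Col1a1 reached 3380.3, 3317 and 3509 CPM in Sub-ASCs, 5189, 4954 and 5074 in Ab-ASCs, and 2597, 2582 and 2504 in PVASCs. The depots did not overlap, with Ab-ASCs highest and PVASCs lowest, and the log2 fold change was -0.99 ± 0.0415 for PVASCs against Ab-ASCs and -0.41 ± 0.0412 against Sub-ASCs (edgeR adjusted p = 1.99e-09 and 1.76e-06). Col1a2 reached 5061, 4736 and 5203 CPM in Sub-ASCs, 4440.0, 4229 and 4317 in Ab-ASCs, and 2225, 2329 and 2171 in PVASCs. It was lowest in PVASCs, at a log2 fold change of -1.16 ± 0.0482 against Sub-ASCs and -0.95 ± 0.0480 against Ab-ASCs, and highest in Sub-ASCs rather than in Ab-ASCs. The order of Sub-ASCs and Ab-ASCs for Col1a2, -0.21, turned to 0.084 once length and GC content were corrected for and is uncertain.

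The type V chains, which join type I in mixed fibrils and set fibril diameter, followed Col1a1 in being highest in Ab-ASCs for Col5a1 and Col5a2. Col5a2 had 1422, 1365 and 1432 CPM in Sub-ASCs, 3973, 3902 and 3832 in Ab-ASCs, and 1736, 1717 and 1744 in PVASCs. Its log2 fold change was 1.47 ± 0.0408 for Ab-ASCs against Sub-ASCs, -1.17 ± 0.0404 for PVASCs against Ab-ASCs and 0.30 ± 0.0400 for PVASCs against Sub-ASCs, and the 3 depots did not overlap. Col5a1 had 692, 626 and 703 CPM in Sub-ASCs, 1002, 1003 and 1018 in Ab-ASCs, and 636, 622 and 608 in PVASCs. Ab-ASCs lay above the other two depots (0.58 ± 0.0510 against Sub-ASCs), while PVASCs against Sub-ASCs gave -0.12 with an interval of ± 2 SE of -0.22 to -0.01 (edgeR adjusted p = 0.0604), which passed in 4 of 16 alternative settings. The remaining chain, Col5a3, was at 57.8 CPM in Sub-ASCs, 59.6 in Ab-ASCs and 30.7 in PVASCs and was lower in PVASCs in both comparisons (-0.91 and -0.96), while Ab-ASCs against Sub-ASCs gave 0.05 (-0.11 to 0.20), which passed with the length and GC correction (0.17, edgeR adjusted p = 0.0364).

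Of the cartilage-type fibrillar chains, Col11a1 and Col2a1 had few reads in Sub-ASCs and, in PVASCs, the largest fold changes among the fibrillar genes. Col2a1 passed the low-count filter only through PVASCs. Col11a1, a chain of type XI collagen that nucleates cartilage fibrils and also occurs outside cartilage, had 4, 6 and 5 reads in Sub-ASCs, 123, 200 and 207 in Ab-ASCs, and 1590, 1510 and 1700 in PVASCs. The 3 depots did not overlap and rose from Sub-ASCs through Ab-ASCs to PVASCs, with log2 fold changes of 7.97 ± 0.180 for PVASCs and 5.34 ± 0.224 for Ab-ASCs, each relative to Sub-ASCs, and 2.63 ± 0.105 for PVASCs relative to Ab-ASCs (edgeR adjusted p = 1.15e-12, 3.36e-10 and 1.29e-09). Col2a1, the chain of type II collagen, the main fibril of cartilage, had 0, 1 and 3 reads in Sub-ASCs, 1, 3 and 0 in Ab-ASCs, and 336, 337 and 368 in PVASCs. It was present in the 3 PVASC libraries at 336 to 368 reads and at 3 reads or fewer in every other library. The ratio of the depth-scaled read sums was 232 over Sub-ASCs (95% exact interval 90.5 to 855) and 206 over Ab-ASCs (80.3 to 758), intervals that cover counting error only. Col11a2, the partner chain of type XI, had means of 2.04, 1.58 and 2.04 CPM and was not called in any comparison, although Ab-ASCs against Sub-ASCs passed in 1 of 16 alternative settings.

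Of 7 chondrocyte markers, 4 were tested, of which Acan, Sox9 and Matn3 were higher and Comp lower in PVASCs than in Sub-ASCs, while 1 of 4, Acan, was higher in PVASCs than in Ab-ASCs (median log2 fold change -0.0076). Acan and Comp passed the filter only through the depot where they were highest, so their calls are not independent of that filter. The part of these chondrocyte markers in the result was not tested. Sox9, the transcription factor that drives Col2a1 in cartilage, was at 16.5 CPM in Sub-ASCs, 38.9 in Ab-ASCs and 39.4 in PVASCs, and its PVASC against Ab-ASC difference was 0.02 on the log2 scale. Acan was at 0.0270 CPM in Sub-ASCs, 0.155 in Ab-ASCs and 0.467 in PVASCs, and Matn1, Hapln1 and Cnmd failed the low-count filter. The summed level of the 7 genes was 16.2 to 18.8 CPM in Sub-ASCs, 37.3 to 42.2 in Ab-ASCs and 38.6 to 43.1 in PVASCs.

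A pair of minor fibrillar genes went the other way and were highest in Sub-ASCs. Col24a1, which encodes a chain known from developing bone and cornea, had 66.3, 60.1 and 62.6 CPM in Sub-ASCs, 4.03, 6.18 and 6.42 in Ab-ASCs, and 2.90, 4.27 and 3.75 in PVASCs. All Sub-ASC libraries lay above all others, and the log2 fold change was -4.12 ± 0.146 for PVASCs and -3.49 ± 0.144 for Ab-ASCs against Sub-ASCs (edgeR adjusted p = 7.21e-11 and 2.96e-10). Col27a1, a chain of cartilage and developing tissues, had means of 23.6, 6.03 and 5.93 CPM and was lower in PVASCs at a log2 fold change of -1.99 and in Ab-ASCs at -1.96 against Sub-ASCs. In all, 3 fibrillar genes were higher and 6 lower in PVASCs than in Sub-ASCs, 2 were higher and 7 lower in PVASCs than in Ab-ASCs, and 4 were higher and 4 lower in Ab-ASCs than in Sub-ASCs, of 11 tested. These are 81.8%, 81.8% and 72.7% called, where 70.4%, 56.9% and 75.3% of all genes tested were called.

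The 6 type IV genes form 3 pairs that lie head to head in the genome, and within each pair both members had the same direction against Sub-ASCs. In Col4a1 and Col4a2, the chains of nearly every basement membrane, the transcribed intervals on chromosome 8 share 22 bases (Col4a1 at 11198423 to 11312826 on the minus strand, Col4a2 at 11312805 to 11449287 on the plus strand, GRCm38). Col4a4 and Col4a3, chains of the kidney and lung basement membranes, start 71 bases apart on chromosome 1. Col4a6 and Col4a5, chains known from smooth muscle and epithelial basement membranes, start 1308 bases apart on the X chromosome. The stretch between the listed starts of Col4a4 and Col4a3 is printed whole because it is all that separates the starts of 2 members with the same direction. It lies at chr1:82586850-82586920 (GRCm38.p6, RefSeq promoter window of Col4a4), is read here on the minus strand towards Col4a4, and has a GC content of 69.01%.
Col4a4 to Col4a3 gap: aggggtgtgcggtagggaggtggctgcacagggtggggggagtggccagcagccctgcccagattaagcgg
The motifs CCAAT and TATAAA, searched on both strands in the 250 bases before the starts, were found in 34.2% and 13.2% of 38 RefSeq promoters of 35 collagen genes, against 33.8% and 12.4% of all 32851 promoters, and the GC box GGGCGG in 57.9% against 32.7%. These are matches of letters, and because both strands were searched a match of one motif can share bases with a match of another.

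Col4a1 and Col4a2 were the abundant pair. Col4a1 had 1128, 1041 and 1187 CPM in Sub-ASCs, 2300.4, 2214 and 2261 in Ab-ASCs, and 2079, 2089 and 2029.7 in PVASCs. Sub-ASCs lay below all other libraries, and the log2 fold change was 0.88 ± 0.0509 for PVASCs and 1.01 ± 0.0510 for Ab-ASCs against Sub-ASCs (edgeR adjusted p = 7.70e-09 and 2.01e-09). The difference between PVASCs and Ab-ASCs, -0.13 ± 0.0505, passed the test with an adjusted p of 0.0460 in edgeR but lost the call in 10 of 16 alternative settings (adjusted p up to 0.2501). Col4a2 had 669, 623 and 704 CPM in Sub-ASCs, 1714, 1666 and 1698 in Ab-ASCs, and 1313, 1346 and 1291 in PVASCs. It too was lowest in Sub-ASCs (0.99 for PVASCs and 1.35 for Ab-ASCs), and it was lower in PVASCs than in Ab-ASCs at a log2 fold change of -0.36 (edgeR adjusted p = 7.14e-05). The order of Col4a2 in CPM, Ab-ASCs over PVASCs over Sub-ASCs, is also that of the summed smooth muscle markers, mesothelial markers and proliferation genes, while Col4a3 and Col4a4 ran the other way against Sub-ASCs. Endothelial markers, highest in PVASCs and lowest in Ab-ASCs, did not share that order, and the part of these lists was not tested.

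The X-linked pair showed the same direction with larger folds. Col4a5 had 19.4, 16.4 and 17.5 CPM in Sub-ASCs, 97.7, 107 and 104 in Ab-ASCs, and 116, 111 and 113 in PVASCs, and the log2 fold change was 2.68 ± 0.0705 for PVASCs and 2.53 ± 0.0706 for Ab-ASCs against Sub-ASCs (edgeR adjusted p = 4.40e-12 and 7.28e-12). Col4a6 had 9, 12 and 10 reads in Sub-ASCs, 231, 263 and 266 in Ab-ASCs, and 378, 358 and 410 in PVASCs, and its log2 fold change was 4.87 ± 0.142 and 4.84 ± 0.145 (edgeR adjusted p = 1.17e-11 and 1.46e-11). Neither gene differed between PVASCs and Ab-ASCs past the threshold, with an interval of 0.02 to 0.27 for Col4a5, which passed in 4 of 16 alternative settings, and of -0.14 to 0.20 for Col4a6.

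The Col4a3 and Col4a4 pair had the opposite order, with Sub-ASCs highest and PVASCs lowest. Col4a3 had 67, 83 and 109 reads in Sub-ASCs, 8, 22 and 16 in Ab-ASCs, and 7, 8 and 12 in PVASCs, and Col4a4 had 150, 165 and 154 reads in Sub-ASCs, 18, 31 and 28 in Ab-ASCs, and 16, 15 and 12 in PVASCs. Every Sub-ASC library lay above every other library for both genes. The log2 fold change for PVASCs against Sub-ASCs was -3.55 ± 0.301 for Col4a3 and -3.76 ± 0.180 for Col4a4 (edgeR adjusted p = 3.43e-07 and 1.30e-09), and for Ab-ASCs against Sub-ASCs -2.25 and -2.37. PVASCs were also below Ab-ASCs, at a log2 fold change of -1.31 and -1.39. That call was lost for Col4a3 without Ab-ASC replicate 2 (adjusted p = 0.0688) and without PVASC replicate 1 (adjusted p = 0.0502), again by edgeR. The abundance of the 2 pairs differed widely: by FPKM Col4a1 was at 147, 282 and 302 in Sub-ASCs, Ab-ASCs and PVASCs and Col4a4 at 0.578, 0.106 and 0.0473. On this scale Col4a1 was higher in PVASCs than in Ab-ASCs, the reverse of its order in CPM.

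**Figure D3:**
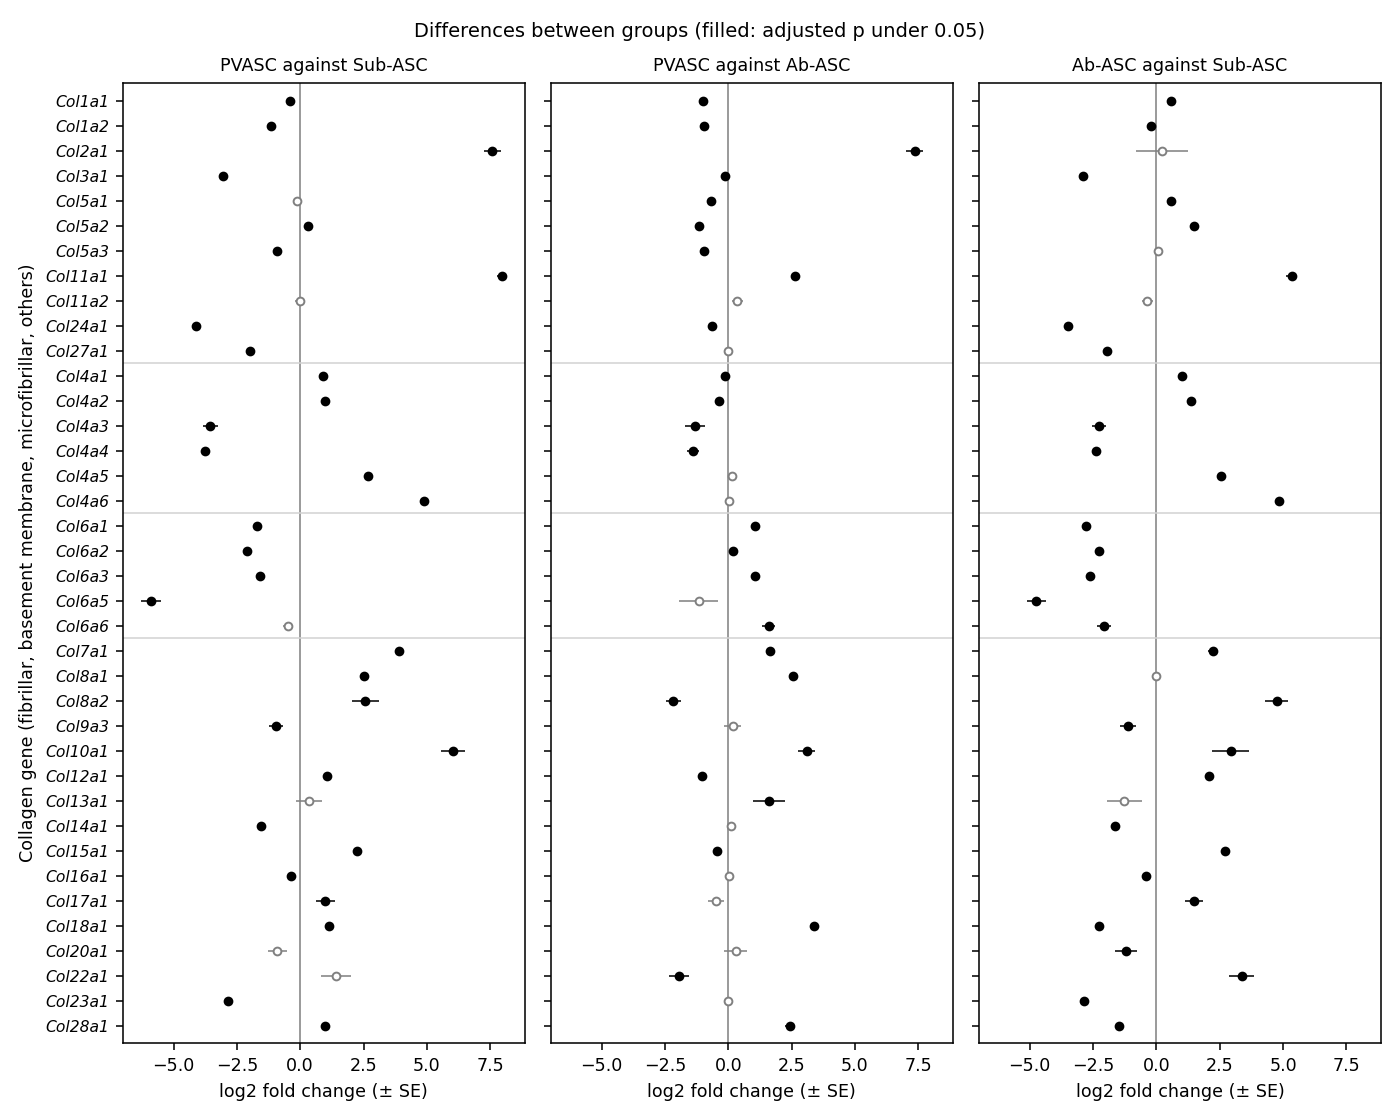
Log2 fold change ± SE (x axis) of the 38 collagen genes tested (y axis, in the order fibrillar, basement membrane, microfibrillar, others) in 3 comparisons, with filled points past an adjusted p of 0.05 in edgeR. Type IV genes split into the pair Col4a3 and Col4a4 left of 0 and the other 4 right of 0 in both comparisons against Sub-ASCs, and all 5 type VI genes lie left of 0 in Ab-ASCs against Sub-ASCs.

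Type VI collagen, a beaded filament that links cells to the surrounding matrix and is abundant in adipose tissue, is assembled from Col6a1, Col6a2 and one further chain, Col6a3 or one of its relatives. All 5 type VI genes tested had their highest mean in Sub-ASCs, where 41.5% of all genes tested did, and 5 of 5 were lower in Ab-ASCs than in Sub-ASCs. PVASCs lay between for the 3 main chains: 4 of 5 were lower than in Sub-ASCs and 4 of 5 higher than in Ab-ASCs. Over all genes tested, 38.3% were lower in Ab-ASCs and 35.7% lower in PVASCs than in Sub-ASCs, and 24.7% were higher in PVASCs than in Ab-ASCs. Col6a5 passed the low-count filter only through Sub-ASCs, so its place in the counts against that depot was set by the filter. Col6a1 had 661, 642 and 678 CPM in Sub-ASCs, 98.9, 96.3 and 93.2 in Ab-ASCs, and 197, 206 and 198 in PVASCs. The 3 depots did not overlap, with log2 fold changes of -2.78 ± 0.0511 for Ab-ASCs against Sub-ASCs, -1.72 ± 0.0487 for PVASCs against Sub-ASCs and 1.06 ± 0.0488 for PVASCs against Ab-ASCs (edgeR adjusted p = 2.11e-13, 8.84e-12 and 4.41e-09). Col6a3 had 931, 877 and 910.4 CPM in Sub-ASCs, 148, 140.1 and 149 in Ab-ASCs, and 296, 309 and 295 in PVASCs. It followed Col6a1 closely, at -2.64, -1.60 and 1.04 in the same comparisons. The summed adipocyte and stromal markers, like type VI genes and Col3a1, were highest in Sub-ASCs. The adipocyte sum was lowest in PVASCs, while the stromal sum and the 3 main type VI chains were lowest in Ab-ASCs. The part of these markers in the results was not tested.

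Col6a2 had 381, 368 and 386 CPM in Sub-ASCs, 82.9, 76.1 and 75.7 in Ab-ASCs, and 90.1, 90.8 and 84.5 in PVASCs. Sub-ASCs lay above all other libraries (-2.27 for Ab-ASCs and -2.10 for PVASCs on the log2 scale), and the PVASC against Ab-ASC difference was 0.18 ± 0.0558 (edgeR adjusted p = 0.0169), which was lost in 4 of 16 alternatives, all with 1 library left out (adjusted p up to 0.0812). Col6a2 and Col6a1 lie in the same direction on chromosome 10 with 85161 bases between them. Col6a5, a chain found in skin and few other tissues that can stand in the place of Col6a3, had 85, 77 and 99 reads in Sub-ASCs, 3, 3 and 2 in Ab-ASCs, and 2, 3 and 0 in PVASCs. Of its reads, nearly all were in Sub-ASCs, with a ratio of depth-scaled read sums of 28.9 over Ab-ASCs and 58.4 over PVASCs. The exact intervals, 14.5 to 67.8 and 24.7 to 181, cover counting error only and not the spread between libraries. Col6a5 passed the low-count filter only through Sub-ASCs, so these ratios describe the reads and are not independent of that filter. Col6a6, the neighbouring alternative chain, had 2.23, 2.91 and 3.78 CPM in Sub-ASCs, 0.698, 0.889 and 0.535 in Ab-ASCs, and 2.20, 2.24 and 2.004 in PVASCs. It was lower in Ab-ASCs than in the other two depots (-2.07 against Sub-ASCs, and PVASCs above Ab-ASCs at a log2 fold change of 1.59), and PVASCs against Sub-ASCs gave -0.48 with an interval of -0.88 to -0.07, which did not pass (edgeR adjusted p = 0.0538) but did in 6 of 16 alternative settings.

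Ratios between chains were computed from reads per kilobase within a library, so that library size cancels. Their absolute size depends on the gene length listed in the table, and only the differences between depots are compared, by an exact permutation test of the F statistic over the 3 groups with 7 ratios adjusted together. The smallest p this design allows is 0.00357 before adjustment, and a pair of groups of 3 cannot go below 0.10. The ratio of Col1a1 to Col1a2 was 1.29 ± 0.0327 in Sub-ASCs, 2.22 ± 0.00630 in Ab-ASCs and 2.16 ± 0.0580 in PVASCs (SD, n = 3, exact adjusted p = 0.00500). The ratio of Col3a1 to Col1a1 was 1.79 ± 0.0250, 0.159 ± 3.06e-05 and 0.289 ± 0.00177 (exact adjusted p = 0.00500). The ratio of Col5a2 to Col5a1 was 1.85 ± 0.0684, 3.43 ± 0.0889 and 2.47 ± 0.0658, with no overlap between depots (exact adjusted p = 0.00500).

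The type IV ratio of Col4a1 to Col4a2 was 1.49 ± 0.00725 in Sub-ASCs, 1.18 ± 0.00615 in Ab-ASCs and 1.39 ± 0.0141 in PVASCs (exact adjusted p = 0.00500). The type VI ratio of Col6a1 to Col6a2 was 3.32 ± 0.0209, 2.34 ± 0.0694 and 4.31 ± 0.155 (exact adjusted p = 0.00500). The ratio of Col6a3 to Col6a1 stayed between 0.492 and 0.584 in all 9 libraries, with means of 0.503, 0.555 and 0.548 (exact adjusted p = 0.0321, and 0.0607 without Sub-ASC replicate 3). The ratio of Col5a1 to Col1a1 was 0.153 ± 0.00634, 0.154 ± 0.00379 and 0.188 ± 0.00151 (exact adjusted p = 0.0321). Sub-ASCs and Ab-ASCs overlapped in this ratio and PVASCs lay above both.

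**Figure D4:**
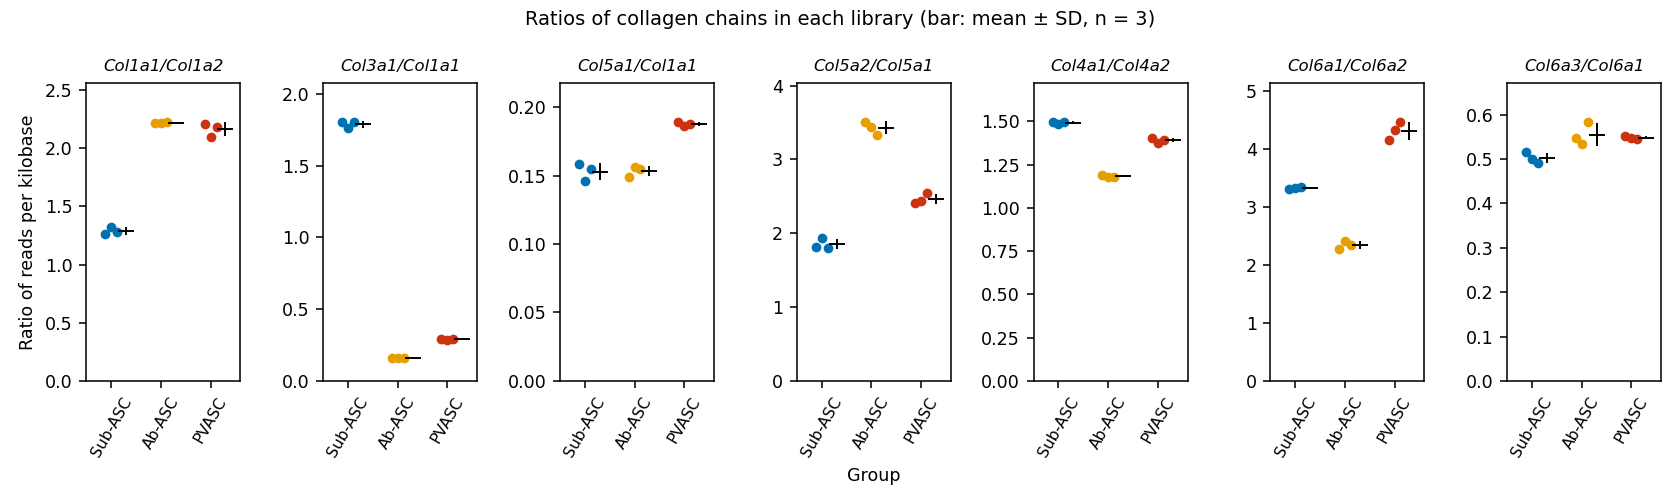
Ratios of reads per kilobase between collagen chains (y axes, each from 0) in the 3 libraries of each depot (x axes), with the mean ± SD (n = 3) beside the points. Col3a1/Col1a1 separates Sub-ASCs at 1.79 from 0.159 and 0.289 in Ab-ASCs and PVASCs, while Col6a3/Col6a1 stays between 0.492 and 0.584.

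Among the remaining collagens, 9 of 16 tested were higher and 4 lower in PVASCs than in Sub-ASCs, 6 were higher and 4 lower in PVASCs than in Ab-ASCs, and 7 were higher and 7 lower in Ab-ASCs than in Sub-ASCs. The called shares, 81.2%, 62.5% and 87.5%, stand beside 70.4%, 56.9% and 75.3% of all genes tested, and the second is near that background. Col8a1, a chain of type VIII collagen of vessel walls and the cornea, had 37.1, 43.0 and 38.8 CPM in Sub-ASCs, 31.7, 42.5 and 42.2 in Ab-ASCs, and 231, 224 and 228 in PVASCs. All PVASC libraries lay above all others, at a log2 fold change of 2.52 ± 0.0996 against Sub-ASCs and 2.55 ± 0.1002 against Ab-ASCs (edgeR adjusted p = 1.97e-10 and 1.08e-09). Sub-ASCs and Ab-ASCs overlapped for Col8a1, with a difference of -0.03 (-0.23 to 0.17) that became 0.33 (edgeR adjusted p = 7.03e-05) with the length and GC correction. Its partner Col8a2 had 0, 2 and 5 reads in Sub-ASCs, 42, 66 and 59 in Ab-ASCs, and 16, 21 and 17 in PVASCs and was highest in Ab-ASCs, at a log2 fold change of 4.74 ± 0.442 against Sub-ASCs and with PVASCs lower at a log2 fold change of -2.17 (edgeR adjusted p = 7.96e-07 and 8.87e-05). Col10a1 is the marker of hypertrophic cartilage. It had 1, 0 and 1 reads in Sub-ASCs, 3, 8 and 4 in Ab-ASCs, and 61, 64 and 67 in PVASCs. The ratio of depth-scaled read sums for PVASCs over Sub-ASCs was 85.8. Its exact interval, 23.4 to 713, covers counting error only and not the spread between libraries. Col10a1 passed the low-count filter only through PVASCs, so this ratio describes the reads and is not independent of that filter. Col10a1 overlaps Nt5dc1, which lies on the opposite strand and had 157 to 360 reads. Without strand information, reads of the 2 genes cannot be told apart where their exons overlap.

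Type VII collagen, the anchoring fibril of skin and mucosal basement membranes, is made from Col7a1 alone. Col7a1 had 1.12, 0.983 and 1.60 CPM in Sub-ASCs, 4.67, 5.87 and 6.91 in Ab-ASCs, and 19.6, 17.8 and 18.3 in PVASCs. The 3 depots did not overlap and PVASCs were highest, at a log2 fold change of 3.90 ± 0.171 against Sub-ASCs and 1.66 ± 0.137 against Ab-ASCs (edgeR adjusted p = 5.31e-10 and 8.77e-07).

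The multiplexins, whose C-terminal fragments include endostatin for type XVIII, split between depots. Col15a1 had 106, 102 and 113 CPM in Sub-ASCs, 707, 686 and 684 in Ab-ASCs, and 515, 510.1 and 492 in PVASCs. It was lowest in Sub-ASCs, with 2.69 ± 0.0524 for Ab-ASCs and 2.24 ± 0.0515 for PVASCs (edgeR adjusted p = 3.05e-13 and 1.35e-12), and lower in PVASCs than in Ab-ASCs at a log2 fold change of -0.45. Col18a1 had 99.1, 87.5 and 102 CPM in Sub-ASCs, 21.6, 19.9 and 19.3 in Ab-ASCs, and 210.3, 218 and 208 in PVASCs. It was highest in PVASCs and lowest in Ab-ASCs with no overlap, at 3.39 ± 0.0747 for PVASCs against Ab-ASCs and 1.14 ± 0.0663 against Sub-ASCs (edgeR adjusted p = 1.05e-11 and 8.74e-09). This order, PVASCs over Sub-ASCs over Ab-ASCs, is also that of the summed endothelial markers, of which 7 of 8 were higher and 1, Tek, lower in PVASCs than in Sub-ASCs, and 8 of 8 were lower in Ab-ASCs than in either other depot. The defining members Pecam1, Cdh5 and Emcn were at 45.3, 46.5 and 20.2 CPM in Sub-ASCs, 12.5, 17.2 and 10.6 in Ab-ASCs, and 180, 209 and 279 in PVASCs, and their part in the result was not tested. Col18a1 overlaps Slc19a1 on the opposite strand (246 to 568 reads).

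Among the FACIT collagens, Col12a1, which coats type I fibrils in tissues under tension, was the most abundant in Ab-ASCs and PVASCs, with 219, 239 and 219 CPM in Sub-ASCs, 906, 977 and 976 in Ab-ASCs, and 456, 475 and 468 in PVASCs. Depots did not overlap, with Ab-ASCs highest and Sub-ASCs lowest, at a log2 fold change of 2.08 ± 0.0542 for Ab-ASCs and 1.05 ± 0.0527 for PVASCs against Sub-ASCs (edgeR adjusted p = 3.84e-12 and 2.09e-09), and PVASCs below Ab-ASCs at a log2 fold change of -1.03. Col16a1, a fibril-associated chain of skin, had 275, 235 and 283 CPM in Sub-ASCs, 202, 197 and 195 in Ab-ASCs, and 203, 202 and 203 in PVASCs. It was above Col12a1 in Sub-ASCs per length as well (38.3 against 14.5 FPKM) and somewhat higher there than in the other depots (-0.38 for PVASCs and -0.42 for Ab-ASCs), and PVASCs against Ab-ASCs gave 0.04 (-0.09 to 0.17), which passed in 1 of 16 alternatives. Col14a1, which binds fibrils in skin and tendon, was at 67.5, 21.7 and 23.2 CPM, lower than in Sub-ASCs at a log2 fold change of -1.54 in PVASCs and -1.64 in Ab-ASCs. Col22a1, the chain of tissue junctions such as the muscle-tendon border, had 2, 4 and 1 reads in Sub-ASCs, 21, 15 and 28 in Ab-ASCs, and 7, 11 and 6 in PVASCs and was highest in Ab-ASCs. It passed the low-count filter only through Ab-ASCs, so no test values against that depot are given, although its calls are in the class counts above. PVASCs against Sub-ASCs gave 1.41 for Col22a1, which did not pass but did in 3 of 14 alternatives.

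Col23a1, a transmembrane collagen, had 29.5, 31.3 and 31.8 CPM in Sub-ASCs, 4.78, 3.78 and 4.24 in Ab-ASCs, and 3.42, 5.12 and 4.26 in PVASCs. All Sub-ASC libraries lay above all others, at a log2 fold change of -2.86 ± 0.124 for PVASCs and -2.86 ± 0.131 for Ab-ASCs (edgeR adjusted p = 5.03e-10 and 7.83e-10), and PVASCs against Ab-ASCs gave 0.00 (-0.30 to 0.30). Col28a1, which belongs to none of the subclasses named and is known from peripheral nerve, had 13.2, 11.2 and 13.2 CPM in Sub-ASCs, 2.90, 5.20 and 5.35 in Ab-ASCs, and 27.6, 21.8 and 23.8 in PVASCs. The 3 depots did not overlap, PVASCs were highest and Ab-ASCs lowest, and the log2 fold change was 2.42 ± 0.172 for PVASCs against Ab-ASCs and 0.96 ± 0.149 against Sub-ASCs (edgeR adjusted p = 2.16e-07 and 9.17e-05). The FACIT genes Col9a3 and Col20a1 and the transmembrane genes Col13a1 and Col17a1 stayed at or below a mean of 1.28 CPM in every depot. Of these, Col9a3 was lower in both other depots than in Sub-ASCs (-0.95 and -1.13). Some calls on the other 3 were lost under alternative settings: Col13a1 in PVASCs against Ab-ASCs (lost in 9 of 14 alternatives, 7 of them with 1 library left out, adjusted p up to 0.162), Col17a1 in PVASCs against Sub-ASCs (lost in 4 of 15, all with 1 library left out, up to 0.135) and Col20a1 in Ab-ASCs against Sub-ASCs (lost in 3 of 15, again with 1 library left out, up to 0.0991), by edgeR or DESeq2. The higher level of Col17a1 in Ab-ASCs than in Sub-ASCs, 1.49 ± 0.369 (edgeR adjusted p = 0.0029), was not lost in any alternative run. Col20a1 in PVASCs against Sub-ASCs, -0.90, did not pass but did in 7 of 15 alternatives.

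Of the 38 genes tested, 16 had their highest mean CPM in Sub-ASCs, 11 in Ab-ASCs and 11 in PVASCs, where among all genes tested the shares were 41.5%, 35.9% and 22.5%. Every library of the highest depot lay above every other library for 14, 9 and 8 of these genes, where that held for 30.7%, 22.9% and 12.7% of all genes tested with Sub-ASCs, Ab-ASCs and PVASCs highest.

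Collagen chains are modified, folded, trimmed, crosslinked, bound by receptors and degraded by dedicated proteins, and 57 such genes were listed by step. A total of 53 were tested. In PVASCs 15 were higher and 33 lower than in Sub-ASCs, and 8 were higher and 31 lower than in Ab-ASCs (7 and 32 of 54 without Ab-ASC replicate 1), while 27 were higher and 23 lower in Ab-ASCs than in Sub-ASCs. Their log2 fold changes had a median of -0.62, -0.45 and 0.31, beside -0.01, -0.06 and -0.03 over all genes tested. The same comparisons called 34.7% of all genes higher and 35.7% lower, 24.7% and 32.1%, and 37.0% and 38.3%. These shares also stand beside the counts by step below. Without PVASC replicate 1 the number above Ab-ASCs in PVASCs was 5 in place of 8.

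The hydroxylation and glycosylation step, which modifies prolines and lysines in the endoplasmic reticulum, had 2 of 15 genes higher and 11 lower in PVASCs than in Sub-ASCs, and 1 higher and 10 lower than in Ab-ASCs. Plod1, a lysyl hydroxylase, was at 441 CPM in Sub-ASCs, 155 in Ab-ASCs and 76.1 in PVASCs, a log2 fold change of -2.53 ± 0.0682 for PVASCs against Sub-ASCs. P4ha2, a subunit of prolyl 4-hydroxylase, was lower in PVASCs than in Ab-ASCs at a log2 fold change of -1.66 ± 0.0628, and P3h2, a prolyl 3-hydroxylase with under 3 CPM in each depot, was higher at a log2 fold change of 1.88 ± 0.274 and lower in Ab-ASCs than in Sub-ASCs at a log2 fold change of -2.28. The galactosyltransferase gene Colgalt2 had 18, 27 and 25 reads in Sub-ASCs, 3, 4 and 1 in Ab-ASCs, and 7, 0 and 2 in PVASCs. It passed the low-count filter only through Sub-ASCs, so no test values against that depot are given. Its call is still among the 11 genes counted as lower in PVASCs than in Sub-ASCs.

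Among chaperones and export factors, 4 of 10 were higher and 4 lower in PVASCs than in Sub-ASCs, none higher and 6 lower than in Ab-ASCs, and 6 higher and 3 lower in Ab-ASCs than in Sub-ASCs. The split between PVASCs and Sub-ASCs was near that of all genes tested, 34.7% higher and 35.7% lower. Tmem38b, an endoplasmic reticulum cation channel needed for collagen secretion, was lower in PVASCs at a log2 fold change of -1.78 ± 0.0626 against Sub-ASCs and -0.81 ± 0.0643 against Ab-ASCs, and Mia3, the cargo receptor that loads procollagen for export, at a log2 fold change of -0.75 ± 0.0827 against Sub-ASCs. Creb3l1, a transcription factor that drives type I collagen genes, and Fkbp10, a procollagen chaperone, were higher in Ab-ASCs than in Sub-ASCs at a log2 fold change of 1.30 ± 0.0665 and 1.30 ± 0.0529, and Creb3l1 was lower in PVASCs than in Ab-ASCs at a log2 fold change of -1.03.

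The proteases and enhancers that trim procollagen ends included 7 genes tested, with 2 higher and 5 lower in PVASCs than in Sub-ASCs. Adamts2, the main N-proteinase of types I and III, was at 1896, 410.1 and 256 CPM in Sub-ASCs, Ab-ASCs and PVASCs, with -2.89 ± 0.0526 for PVASCs and -2.21 ± 0.0512 for Ab-ASCs against Sub-ASCs (edgeR adjusted p = 1.81e-13 and 1.33e-12). Tll1, a tolloid-like C-proteinase, had the reverse order at 2.64, 25.6 and 111 CPM, with 5.39 ± 0.112 for PVASCs against Sub-ASCs, 2.11 ± 0.0870 against Ab-ASCs and 3.28 ± 0.116 for Ab-ASCs against Sub-ASCs. Bmp1, the founding member of that family, stayed the more abundant at 1038, 559 and 409 CPM. Pcolce2, an enhancer of C-proteinase activity, was lower in PVASCs than in Ab-ASCs at a log2 fold change of -2.08 ± 0.0601.

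Of the 5 lysyl oxidases, which crosslink collagen and elastin, 2 were higher and 3 lower in PVASCs than in Sub-ASCs. Loxl1 was lower in PVASCs at a log2 fold change of -1.69 ± 0.0574 and in Ab-ASCs at -1.62 ± 0.0574 against Sub-ASCs. Loxl4 was higher in PVASCs than in Sub-ASCs at a log2 fold change of 1.26 ± 0.0571 and Loxl3 in Ab-ASCs at a log2 fold change of 1.23 ± 0.0584, while Loxl2 and Lox were lower in PVASCs than in Ab-ASCs at a log2 fold change of -1.37 ± 0.0597 and -0.93 ± 0.0889. Of 9 collagen receptors tested, 5 were higher and 3 lower in PVASCs than in Sub-ASCs. Itga11, the integrin chain that binds type I fibrils, was lower in PVASCs at a log2 fold change of -1.91 ± 0.0502 against Sub-ASCs and -1.34 ± 0.0499 against Ab-ASCs, and Itga2 was higher at a log2 fold change of 1.28 ± 0.0852 against Sub-ASCs. The discoidin receptors differed in direction: Ddr1 was higher in Ab-ASCs than in Sub-ASCs at a log2 fold change of 2.51 ± 0.0780 and lower in PVASCs than in Ab-ASCs at a log2 fold change of -1.28, and Ddr2, the fibrillar collagen receptor of mesenchymal cells, was lower in Ab-ASCs than in Sub-ASCs at a log2 fold change of -1.52 ± 0.0886.

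All 7 collagen-degrading genes were lower in PVASCs than in Sub-ASCs, and 6 were lower and 1 higher than in Ab-ASCs. Over all genes tested, 35.7% were lower in PVASCs than in Sub-ASCs, and 32.1% were lower and 24.7% higher than in Ab-ASCs. Mmp2, gelatinase A, was at 3158, 379 and 263 CPM in Sub-ASCs, Ab-ASCs and PVASCs, and Ctsk, the lysosomal collagenase cathepsin K, at 896, 76.3 and 53.8. Their log2 fold changes reached -3.58 ± 0.0514 and -4.06 ± 0.0789 in PVASCs, then -3.06 ± 0.0502 and -3.55 ± 0.0772 in Ab-ASCs, against Sub-ASCs (edgeR adjusted p from 3.83e-14 to 7.63e-13). The interstitial collagenases Mmp13 and Mmp8 were instead highest in Ab-ASCs, at 214 and 24.03 CPM, and lower in PVASCs than in Ab-ASCs at a log2 fold change of -3.17 ± 0.143 and -3.57 ± 0.157 (edgeR adjusted p = 3.74e-09 and 2.87e-09).

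**Figure D5:**
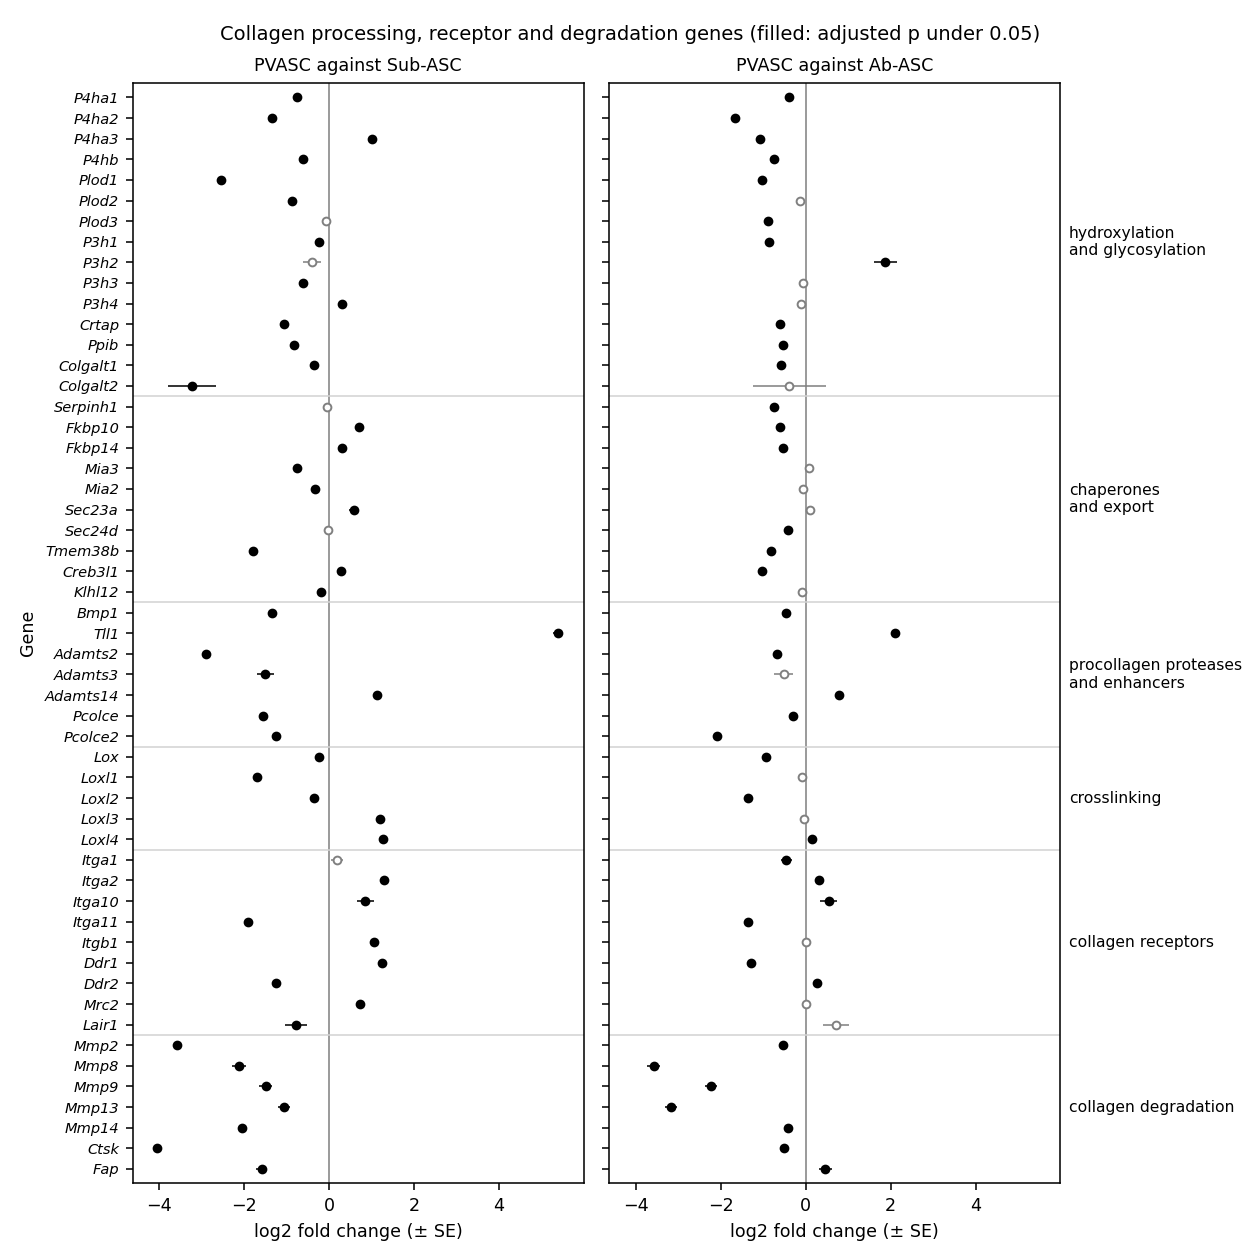
Log2 fold change ± SE (x axis) of the 53 collagen processing, receptor and degradation genes tested (y axis, grouped by step) for PVASCs against Sub-ASCs and against Ab-ASCs, with filled points past an adjusted p of 0.05 in edgeR. All 7 degradation genes lie left of 0 against Sub-ASCs, and Tll1 lies farthest right in both panels.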

How the data were processed

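RNA was taken with Trizol and libraries were made with the NEBNext Ultra RNA kit, which does not mark strand. The authors deposited raw counts per gene for the 9 libraries with a gene length, per the labels made with featureCounts 1.5.0-p3. The submitters' processing notes also name CASAVA 1.8, Bowtie 0.12.2 and the builds mm8 and mm10, and start and end of 98.3% of genes equal GENCODE M21 (GRCm38). The strand setting of the counting is not given in the sources used here. CPM (TMM) and FPKM values were computed here from the deposited counts and lengths. Counts of all 54532 genes were filtered with filterByExpr (16526 kept) and fitted over the 3 depots together in edgeR 4.0.16 with glmQLFit and glmQLFTest, and p-values were adjusted by Benjamini-Hochberg over all genes tested. SE is the absolute log2 fold change over the square root of F. A call is an adjusted p below 0.05.

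Values of every library are given for the 30 members with a mean of at least 10 FPKM in a depot or a called log2 fold change of 2 or more in size, and the 2 processing genes with the largest called change are named per step and comparison. Members and lists were chosen with earlier results of these data known. Alternatives were DESeq2 1.42.0, RLE size factors, no low-count filter or at least 10 reads in every library, the 2 groups compared alone, a replicate block, a correction for length and GC content, a cutoff of 1 on the size of the log2 fold change, and each library left out. On simulated counts for PVASCs against Sub-ASCs with 16012 genes, 91% of genes changed by 1 on the log2 scale and 97% of those changed by 2 were called, with 13 unchanged genes called. The simulation changed 100 genes at each size and gave all genes and depots the same spread. In the data 70.4% of all genes tested were called and the spread differed by depot, so these rates need not hold there.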

Additional observations from a re-analysis of the deposited data

How the results depend on the processing

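Of 1782 recomputed values of single collagen genes, 1688 kept their direction and side of the threshold, 42 lost a call, 29 gained one and 23 changed sign. In 2 of the 23 a call was involved, both in Ab-ASCs against Sub-ASCs under the length and GC correction: Col1a2 from -0.21 to 0.084 and Col8a1 from -0.03 to 0.33. The other 21 were called neither before nor after. Of these, Col5a1 in PVASCs against Sub-ASCs turned to 0.0090 under the same correction, and in PVASCs against Ab-ASCs Col23a1 turned to -0.00010 with no low-count filter and Col27a1 to 0.018 with at least 10 reads in every library and 0.052 with the 2 groups alone. With 1 library left out, values ran from -0.16 to 0.12 (Col11a2) and -0.061 to 0.63 (Col13a1) in PVASCs against Sub-ASCs, from -0.0099 to 0.91 (Col20a1), -0.15 to 0.14 (Col23a1), -0.089 to 0.0082 (Col27a1), -0.016 to 0.069 (Col4a6) and -0.023 to 0.38 (Col9a3) in PVASCs against Ab-ASCs, and from -0.99 to 1.42 (Col2a1), -0.034 to 0.10 (Col5a3) and -0.091 to 0.098 (Col8a1) in Ab-ASCs against Sub-ASCs. That correction moved the median of all genes to 0.03 for PVASCs and 0.13 for Ab-ASCs, each relative to Sub-ASCs, and -0.14 for PVASCs relative to Ab-ASCs, and the cause was not tested. Calls were lost in some setting for 1 gene between PVASCs and Sub-ASCs, 6 between Ab-ASCs and PVASCs and 2 between Sub-ASCs and Ab-ASCs.

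By construction, a cutoff of 1 on the size of the log2 fold change lowered the counts: over all genes to 5328 (2591 higher, 2737 lower) for PVASCs and Sub-ASCs, 2551 (1673, 878) for PVASCs and Ab-ASCs, then 6241 (2714, 3527) for Ab-ASCs and Sub-ASCs, over collagen genes to 17 for PVASCs against Ab-ASCs (6 lower), and over processing genes to 28 (8, 20), 13 (2, 11) and 23 (11, 12). With at least 10 reads in every library, where fewer collagen genes were tested, 10 were higher in PVASCs and 9 in Ab-ASCs than in Sub-ASCs. Processing genes higher in PVASCs than in Ab-ASCs fell from 8 to 5 with the length and GC correction and ranged from 5 to 8 with 1 library left out, and the cause was not tested.

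The collagen share was 0.897%, 0.781% and 0.628% of the summed FPKM in Sub-ASCs, Ab-ASCs and PVASCs, and 1.49%, 1.93% and 1.43% of reads without Col3a1. The adjusted exact p for Col6a3/Col6a1 ran from 0.0125 to 0.0607 with 1 library left out.

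Deviations of libraries with the same replicate number correlated between -0.0405 and 0.0723. These values cannot show whether such libraries shared an animal or a preparation. With a replicate block, 33, 25 and 33 collagen genes were called against 32, 27 and 33, and the PVASC against Ab-ASC calls of Col4a1 (adjusted p = 0.0641, edgeR) and Col13a1 (adjusted p = 0.0820, edgeR) were lost. Low counts limit the precision for members such as Col13a1, with 1 to 16 reads per library.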
